A study of Rattus norvegicus with 12 samples.

Results

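The genes described here are the 2 Hmga genes of the rat, Hmga1 and Hmga2, and its 3 lamin genes, Lmna, Lmnb1 and Lmnb2. They were chosen by gene name, with earlier results of these same libraries known, and make up 5 of the 28111 gene names in the files. Because the differences between conditions were in view when the genes were chosen, their values are given as a description, with levels, fold changes and standard errors but no p-value. Each name has 1 row in every file.

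HMGA proteins are small architectural chromatin proteins. They bind the minor groove of AT-rich DNA through AT-hook motifs, bend it, and help transcription factors assemble at enhancers and promoters. Both are abundant in embryonic tissue and in dividing progenitors and low in most differentiated cells, and Hmga2 is a classical target of the let-7 microRNAs. Lamins are the intermediate filaments that line the inner face of the nuclear envelope, anchor peripheral heterochromatin and bear mechanical load. Lmna encodes the A-type lamins A and C, whereas Lmnb1 and Lmnb2 encode the B-type lamins. B-type lamins are made in nearly all cells, and the proportion of A-type to B-type lamin is known to differ between soft tissues such as brain and stiff tissues such as muscle and bone.

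The libraries came from primary neuroglial cultures of the brain cortex of newborn Wistar rats at 10 days in vitro. RNA was collected 4 h after an addition to the medium. Cultures with no addition formed the intact control (IC), and the others received extracellular vesicles at 10 µg/mL (EV), the 3-100 kDa proteins at 15 µg/mL or the total secretome at 45 µg/mL. All 3 preparations came from glial progenitor cells differentiated from human induced pluripotent stem cells of a single donor, and by the study's methods all cultures, controls included, had received cytosine arabinoside, which acts against dividing cells. There were 3 libraries in each of the 4 groups. The labels do not say that these were separate cultures. The study states in general that experiments were repeated on unrelated cultures, and it names a day covariate for IC and EV, but the culture and day of each library are not given in the sources used here. The p-values therefore measure only the spread between the libraries, which may be technical. The doses differ as well as the preparations, and the contributions of dose and preparation to a difference between treatments cannot be told apart.

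Levels are given as TPM, a unit scaled to the same total in every library and corrected for transcript length and can therefore be compared between genes. The files hold no read numbers, so the depth of each library is unknown and no counting interval is given. Fold changes were fitted on log2(TPM + 1), which understates the change of low genes. Markers of the labelled cell types were present. All 9 neuronal markers were at 1 TPM or more in all 12 libraries, with sums between 1992 and 2678 TPM, and the sums of 8 astrocyte markers lay between 945.5 and 1679 TPM. Those of 8 oligodendrocyte lineage markers lay between 121 and 256 TPM. The sums of 8 microglial markers were at most 2.42 TPM, of 5 endothelial and mural markers at most 4.20 TPM and of 5 fibroblast markers at most 1.96 TPM. The 11 markers of dividing cells summed to between 262 and 597 TPM. In these bulk libraries, more cells of a type and more RNA per cell cannot be told apart.

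The sequences around the annotated starts of the genes are shown because the members differed in level between conditions to unequal extents, and the reader can see what lies upstream of those that differed and of those that did not. They were taken from the RefSeq promoter table of the build GRCr8, in which all 5 genes matched. The expression files use rn6, so these coordinates belong to GRCr8 alone. Each window runs 5′ to 3′ on the strand of the gene from 250 bases before to 10 bases after the start. Capitals mark matches, on either strand, to the AP-1 motif (TGANTCA), the E-box (CACGTG), the GC box (GGGCGG), the CCAAT box or the core of the cAMP response element (TGACG). No matches overlapped one another. The windows of Hmga1 (chr20:5613258-5613517, plus strand), Lmna (chr2:176258226-176258485, minus strand) and Lmnb1 (chr18:52373689-52373948, plus strand) are printed, as the genes with the highest TPM among the Hmga genes, the A-type lamins and the B-type lamins.
Hmga1: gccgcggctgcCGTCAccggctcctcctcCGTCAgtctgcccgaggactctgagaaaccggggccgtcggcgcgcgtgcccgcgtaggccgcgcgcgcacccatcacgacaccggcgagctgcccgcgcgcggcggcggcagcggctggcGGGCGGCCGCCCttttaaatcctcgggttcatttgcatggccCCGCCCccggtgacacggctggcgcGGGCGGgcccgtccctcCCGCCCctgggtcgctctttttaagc
Lmna: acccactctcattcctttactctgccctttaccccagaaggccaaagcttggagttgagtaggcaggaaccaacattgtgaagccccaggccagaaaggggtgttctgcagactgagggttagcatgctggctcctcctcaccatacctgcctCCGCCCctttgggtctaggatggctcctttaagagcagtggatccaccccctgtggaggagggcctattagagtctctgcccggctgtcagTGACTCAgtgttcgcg
Lmnb1: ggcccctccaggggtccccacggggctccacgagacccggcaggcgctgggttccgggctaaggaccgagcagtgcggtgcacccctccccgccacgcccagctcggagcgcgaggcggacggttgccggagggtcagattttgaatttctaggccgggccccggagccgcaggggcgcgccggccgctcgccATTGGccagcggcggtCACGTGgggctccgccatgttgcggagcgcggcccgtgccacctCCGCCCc

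The Hmga1 window held 5 GC boxes and 2 cores of the cAMP response element, and 75.0% of its bases were G or C. Lmna had 1 AP-1 match, TGACTCA, that began 6 bases before the start and runs across it, and 1 GC box, with a GC content of 56.5%. In Lmnb1 there were 1 E-box, 1 CCAAT box and 1 GC box that lies just after the start, with a GC content of 75.4%. Among all 33469 promoter windows of the table, of the same length, the median GC content was 51.5%, and a match was present to the AP-1 motif in 6.61%, the E-box in 5.84%, the GC box in 31.2%, the CCAAT box in 34.8% and the cAMP response element core in 19.1%. The window of Lmnb2 (chr7:9443058-9443317, plus strand) held 1 E-box and had a GC content of 49.6%. For Hmga2 (chr7:57880332-57880591, minus strand), with a GC content of 56.5%, none of the searched letters was found. TATAAA, present in 13.2% of all windows, and the CArG box, present in 1.53%, had no match in any of the 5 windows, which says only that these letters are not in them. These matches are a description of the sequence and not binding sites.

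Hmga1 and Lmna had higher levels after each of the 3 treatments, Hmga2 after the total secretome and the 3-100 kDa proteins, while for both B-type lamins the libraries of every group overlapped. Relative to IC, the mean level of Hmga1 was 1.81 times as high after EV, 3.56 times after the total secretome and 6.04 times after the 3-100 kDa proteins. For Lmna the ratios were 1.95, 4.11 and 5.28 in the same order, while for Lmnb1 they were 1.09, 1.15 and 1.02 and for Lmnb2 0.920, 1.0 and 0.944. The order of the 4 conditions was thus the same for Hmga1 and Lmna, and it does not follow the dose by mass, which was highest for the total secretome.

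Hmga1 encodes the more widely expressed of the 2 HMGA proteins and was the most abundant of the 5 genes in every library. Its level in IC was 69.2, 89.1 and 70.9 TPM in replicates 1 to 3. After EV it was 148, 155 and 112 TPM, after the total secretome 260.0, 283 and 274 TPM, and after the 3-100 kDa proteins 459, 483 and 443 TPM. No library of one group lay within the range of another group, so the 4 groups formed 4 separate steps. The means were 76.4 ± 11, 138 ± 23.4, 272 ± 11.4 and 462 ± 20.3 TPM (SD, n = 3 each). The log2 fold change against IC was 0.83 (SE 0.18) for EV, 1.85 (SE 0.15) for the total secretome and 2.62 (SE 0.14) for the 3-100 kDa proteins. The EV libraries had the widest relative spread, with a coefficient of variation of 16.9% against 4.39% after the 3-100 kDa proteins.

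Hmga2, the HMGA gene best known from early embryos and stem cells, was near the bottom of the scale. The IC libraries listed it at 0.395, 0 and 0 TPM, the EV libraries at 0.733, 0.453 and 0 TPM. Levels were 1.49, 2.77 and 0.896 TPM after the total secretome and 3.18, 3.13 and 1.62 TPM after the 3-100 kDa proteins. Every library of these last groups was above every library of IC and EV, whereas EV overlapped IC and the total secretome overlapped the 3-100 kDa proteins. A listed 0 is not absence here, since the ribosomal protein gene Rps6 is also listed at 0 in all 12 libraries. Hmga2 reached the filter of at least 1 TPM in at least 3 of 6 libraries only in comparisons that include the 3-100 kDa proteins, so it entered through the group in which it is high. Its log2 fold change there was 1.69 (SE 0.27) against IC on a scale with 1 TPM added, and it became 3.99 with 0.1 TPM added, so the size of the change rests on the constant. Below the filter, the corresponding values were 0.29 (SE 0.24) for EV and 1.24 (SE 0.27) for the total secretome.

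Lmna, the gene of lamins A and C, stood at 18.8, 24.4 and 16.3 TPM in IC. After EV its level was 48.9, 35.1 and 31.9 TPM. The total secretome libraries had 92.8, 87.2 and 64.5 TPM and the 3-100 kDa protein libraries 115, 108 and 91.3 TPM. All treated libraries were above all IC libraries and the EV libraries lay below those of the other treatments, but the total secretome and the 3-100 kDa proteins overlapped in deposited TPM. After rescaling of the libraries they no longer overlapped. The means were 19.8 ± 4.13, 38.6 ± 9.03, 81.5 ± 15.0 and 105 ± 12.2 TPM (SD, n = 3 each) for IC, EV, the total secretome and the 3-100 kDa proteins. On the log2 scale Lmna differed from IC by 0.91 (SE 0.22) for EV, 2.01 (SE 0.17) for the total secretome and 2.39 (SE 0.16) for the 3-100 kDa proteins.

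Lmnb1 encodes lamin B1, which is high in proliferating cells and is lost in senescence. Its level was 51.9, 87.3 and 49.3 TPM in IC, and 62.1, 86.9 and 55.7 TPM after EV. In the total secretome libraries it was 57.0, 93.9 and 66.7 TPM, and in the 3-100 kDa protein libraries 53.0, 76.8 and 61.9 TPM. The ranges of all 4 groups overlapped, and replicate 2 was the highest of its group each time. Group means lay between 62.8 ± 21.2 TPM in IC and 72.5 ± 19.1 TPM after the total secretome (SD, n = 3 each). The log2 fold changes against IC of 0.13 (SE 0.25), 0.24 (SE 0.27) and 0.09 (SE 0.24) for EV, the total secretome and the 3-100 kDa proteins were all smaller than their standard errors in the fit without pairing. With the replicate number as a block the standard errors were 0.17, 0.13 and 0.18, and for the total secretome, whose numbers were read as paired with IC, Lmnb1 was higher in all 3 pairs.

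Lmnb2, the second B-type lamin gene, was measured at 17.2, 23.3 and 15.7 TPM in the IC libraries. EV libraries had 17.2, 19.4 and 15.2 TPM. It had 18.4, 20.2 and 17.8 TPM after the total secretome and 17.7, 21.2 and 14.3 TPM after the 3-100 kDa proteins. Again all groups overlapped and replicate 2 was the highest in each. The means were 18.8 ± 4.02, 17.3 ± 2.07, 18.8 ± 1.22 and 17.7 ± 3.45 TPM in that order (SD, n = 3 each). Its log2 fold changes against IC were −0.11 (SE 0.19), 0.04 (SE 0.17) and −0.05 (SE 0.19) for EV, the total secretome and the 3-100 kDa proteins.

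**Figure D1:**
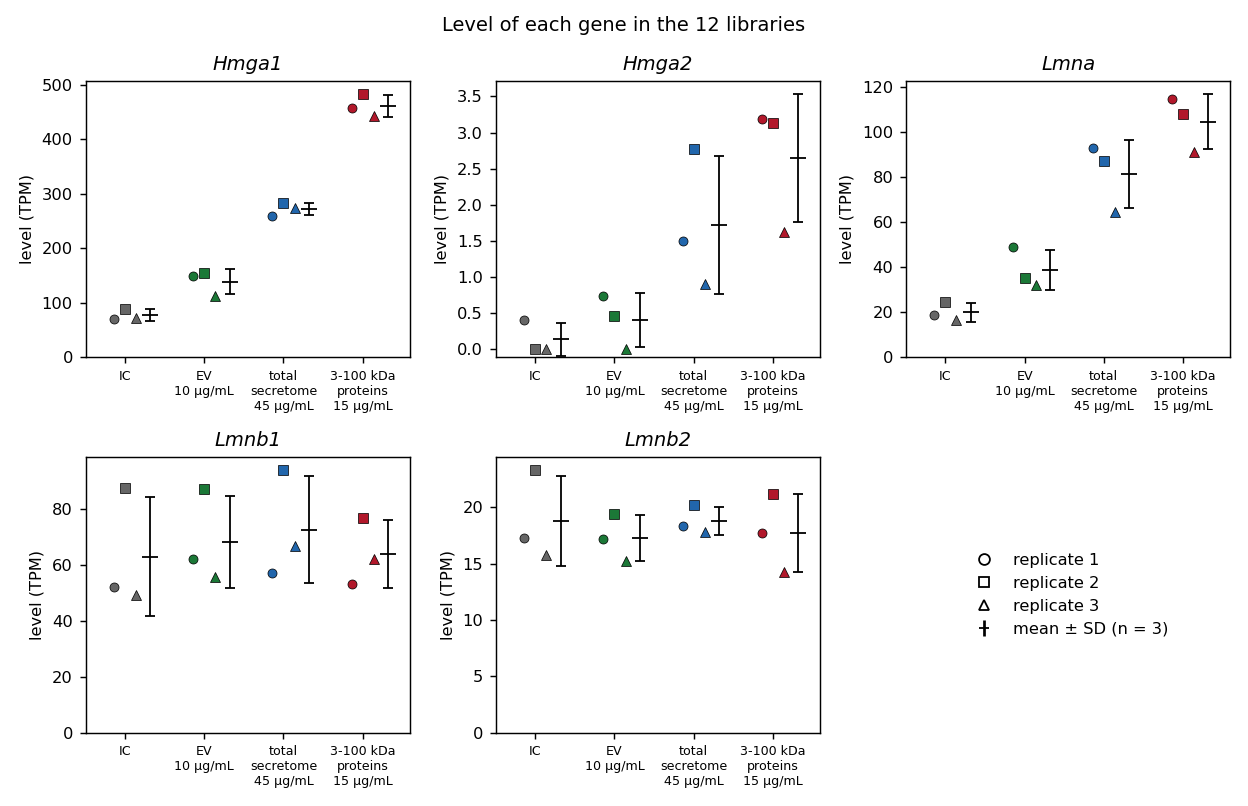
Level in TPM (vertical axis, its own linear scale for each gene) of Hmga1, Hmga2, Lmna, Lmnb1 and Lmnb2 in the 12 libraries, with circles, squares and triangles for replicates 1 to 3 and a bar for the mean ± SD (n = 3). Hmga1 and Lmna climb from IC through EV and the total secretome to the 3-100 kDa proteins, whereas for Lmnb1 and Lmnb2 the groups overlap and the square, replicate 2, is the highest in each.

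Among all genes tested, the members stood as follows. A gene was counted as called when its unadjusted p in limma was under 0.05 and its fold change over 1.5. For EV against IC, 2 of the 4 members tested, Hmga1 and Lmna, were called higher and 0 lower, where 1.56% of all 12754 genes tested were called higher and 0.588% lower. The EV libraries lay wholly above those of IC for these 2 members and for 3.7% of all genes. For the total secretome against IC, the same 2 of 4 were called higher, against 5.55% of all 12790 genes called higher and 2.54% lower, and the libraries of these 2 lay above IC, as they did for 13% of all genes. For the 3-100 kDa proteins against IC, 3 of 5 members, with Hmga2, were called higher, against 6.64% of all 12792 genes called higher and 3.39% lower, and the libraries lay above IC for these 3 and for 12.6% of all genes. Hmga2 was tested here only through the group in which it is high, so the filter shaped its count. At a false discovery rate under 0.05 by Benjamini-Hochberg adjustment, 0 of 4 members passed for EV and 2 of 4 for the total secretome. For the 3-100 kDa proteins 3 of 5 passed, with Hmga2. Of all genes, 0.141%, 1.97% and 3.31% passed in the same order. Since the choice of members used these same contrasts, nothing is read from these counts. Across all genes the 5th to 95th percentile of the log2 fold change ran from −0.35 to 0.37 for EV, from −0.53 to 0.70 for the total secretome and from −0.57 to 0.79 for the 3-100 kDa proteins, and both B-type lamins were inside these ranges each time.

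**Figure D2:**
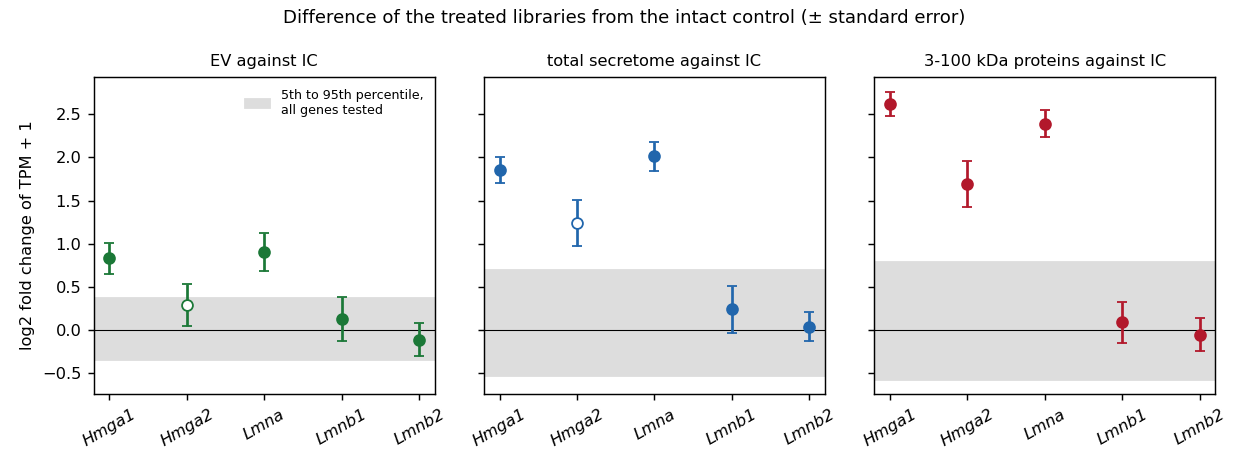
Log2 fold change of TPM + 1 against IC (vertical axis, bars ± SE from the limma fit of 6 libraries) for each gene and treatment, with the grey band marking the 5th to 95th percentile of all genes tested and open circles marking Hmga2 where it was below the filter. Hmga1 and Lmna lie above the band in all 3 comparisons, and Lmnb1 and Lmnb2 lie inside it.

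The treatments are set side by side with their unequal doses. Against the 3-100 kDa proteins at 15 µg/mL, EV at 10 µg/mL had a lower level of Hmga1 by a log2 fold change of −1.77 (SE 0.14), of Hmga2 by −1.40 (SE 0.29) and of Lmna by −1.46 (SE 0.18), with no overlap of libraries for these 3 of 5 members and for 16.4% of all genes in either direction. Against the total secretome at 45 µg/mL, the EV values were −1.0 (SE 0.15) for Hmga1 and −1.08 (SE 0.19) for Lmna, without overlap for these 2 of 4 members tested and for 14.4% of all genes. Between the total secretome and the 3-100 kDa proteins the difference was −0.76 (SE 0.10) for Hmga1 and −0.37 (SE 0.11) for Lmna, and the libraries did not overlap for these 2 of 5 members, after rescaling, and for 6.53% of all genes. The log2 fold changes of Lmnb1 and Lmnb2 between treatments lay between −0.13 and 0.16.

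The transcript balance of the lamina moved with Lmna. The ratio of Lmna to the sum of Lmnb1 and Lmnb2 in TPM was 0.273, 0.220 and 0.251 in the IC libraries and 0.617, 0.331 and 0.449 in the EV libraries. It reached 1.23, 0.765 and 0.763 after the total secretome and 1.63, 1.10 and 1.20 after the 3-100 kDa proteins. A-type transcripts thus exceeded B-type transcripts in all 3 libraries of the 3-100 kDa proteins and in 1 library of the total secretome, and in no library of IC or EV. Group means were 0.248 ± 0.0264, 0.466 ± 0.144, 0.920 ± 0.270 and 1.31 ± 0.278 (SD, n = 3 each). The summed B-type level itself had means of 81.6, 85.5, 91.3 and 81.6 TPM in the same order. Hmga1 and Lmna kept a similar proportion to each other, with a Hmga1 to Lmna ratio of 3.90 ± 0.399 in IC, 3.65 ± 0.706 in EV, 3.43 ± 0.741 after the total secretome and 4.44 ± 0.431 after the 3-100 kDa proteins (SD, n = 3 each). The proportion of Lmnb1 to Lmnb2 was 3.30, 3.92, 3.83 and 3.66 on average. These are transcript ratios, and lamin protein was not analysed here.

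Covariation of the genes across the 12 libraries differed from that within conditions. As a description, Pearson's r of log2(TPM + 1) over 12 libraries was 0.97 between Hmga1 and Lmna, 0.90 between Hmga1 and Hmga2, and 0.91 between Hmga2 and Lmna. Between Lmnb1 and Lmnb2 it was 0.75, and between Hmga1 and Lmnb1 0.24. The 12 points share 4 conditions, so much of the first 3 values is the difference between conditions. When each library was expressed as its deviation from its group mean, r was 0.44 between Hmga1 and Lmna and 0.07 between Hmga1 and Hmga2, but 0.81 between Lmnb1 and Lmnb2 and 0.74 and 0.69 between Hmga1 and Lmnb1 and Lmnb2. Within conditions Hmga1 thus varied more closely with the B-type lamins than with Lmna or Hmga2.

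Markers of dividing cells, and of some other cell types, moved with the B-type lamins from library to library. The sum of the 11 markers, which include Mki67, Top2a and Mcm5, was 272, 484 and 299.7 TPM in IC, 269, 538 and 353 TPM in EV, 313, 597 and 418 TPM after the total secretome and 262, 511 and 389.5 TPM after the 3-100 kDa proteins. Replicate 2 was the highest of every group, as for Lmnb1 and Lmnb2. Over the 12 libraries r of this sum was 0.91 with Lmnb1 and 0.66 with Lmnb2, and 0.24 with Hmga1 and 0.18 with Lmna. The corresponding r of the deviations from the group means was 0.91, 0.69, 0.46 and −0.10. In these and all later r with marker sums, the sums were in deposited TPM and the members in rescaled TPM. None of the 11 markers was called in any comparison with IC, and 0 had an unadjusted limma p under 0.05, with median log2 fold changes of 0.13 for EV, 0.29 for the total secretome and 0.14 for the 3-100 kDa proteins. With the replicate number as a block, however, 3 of the 11 had an unadjusted limma p under 0.05 for the total secretome and none for the other treatments. They were Mcm2 (log2 fold change 0.60, SE 0.15, adjusted p = 0.105), Mcm5 (0.73, SE 0.16, adjusted p = 0.0798) and Mcm6 (0.56, SE 0.13, adjusted p = 0.0944), named after their values were seen, and Mcm2 and Mcm5 were called higher. The summed level was higher than in IC in all 3 same-numbered pairs after the total secretome, as Lmnb1 was. The astrocyte and oligodendrocyte lineage sums were also higher, and the neuronal sum lower, in each of these pairs. The astrocyte marker sum varied alongside, with an r over the 12 libraries of 0.85 with Lmnb1 and 0.62 with Lmnb2. Among deviations the r with Lmnb1 and Lmnb2 was 0.87 and 0.80 for the astrocyte sum and 0.63 and 0.82 for the neural progenitor sum. For the microglial sum, a few TPM at most, it was 0.85 and 0.69. With the remaining sums it lay between −0.68 (neuronal with Lmnb1) and 0.46 (endothelial and mural with Lmnb2). What part these cells had in the level of any member was not tested.

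**Figure D3:**
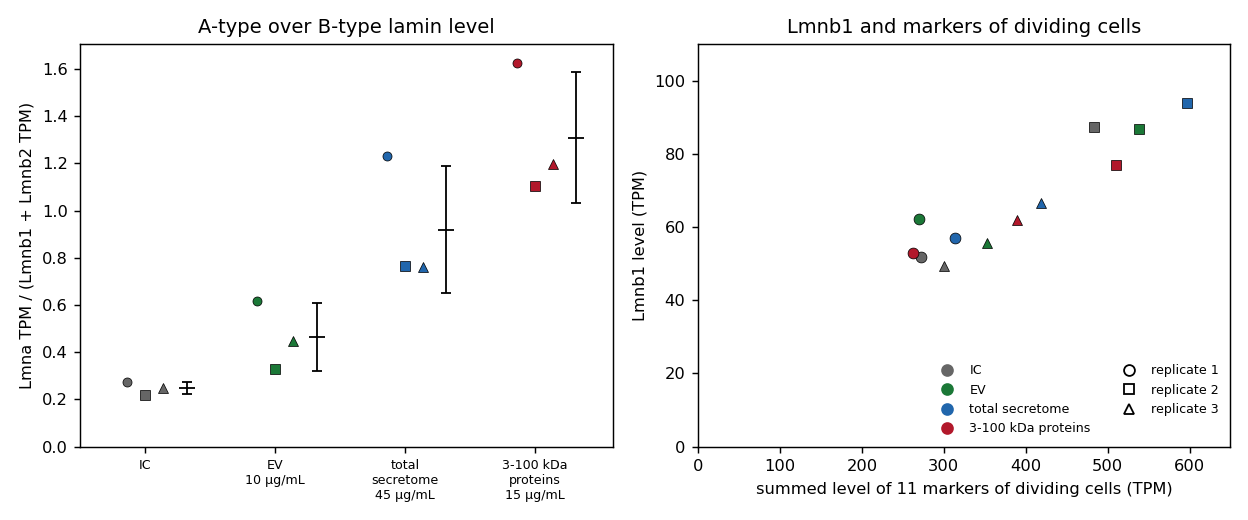
Left, ratio of Lmna TPM to the sum of Lmnb1 and Lmnb2 TPM in each library, with the mean ± SD (n = 3) of each condition; right, Lmnb1 level in TPM against the summed TPM of 11 markers of dividing cells, 1 point per library, with colour for the condition and symbol for the replicate number. The ratio is between 0.220 and 0.273 in IC and between 1.10 and 1.63 after the 3-100 kDa proteins, and on the right the 4 squares, replicate 2 of each condition, lie together at the upper end.

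Other cell type markers moved with the treatments in part. Gfap, of astrocyte filaments, was called higher after EV and the total secretome, the only one of 7 astrocyte markers tested, whose median log2 fold changes were 0.0 and 0.27. Pdgfrb, a pericyte marker, was called lower after all 3 treatments, as was Hes5, a Notch target of neural progenitors. After the 3-100 kDa proteins, Pax6, Notch1 and Olig1 were also called lower and Col1a1 higher. Col1a1 passed the filter only through the treated group, in which it is high, and was not tested after EV or the total secretome. The neural progenitor sum lay between 86.1 and 146 TPM in IC and between 62.8 and 90.3 TPM after the 3-100 kDa proteins, the fibroblast sum between 0.270 and 0.698 TPM and between 1.42 and 1.96 TPM. After the total secretome the fibroblast sum of 0.909 to 1.90 TPM and the oligodendrocyte lineage sum of 231 to 256 TPM were also wholly above IC, the latter at 175 to 223 TPM. The endothelial and mural sum was 2.53 to 4.20 TPM in IC and at most 1.82 TPM in every treated library. No neuronal marker was called. The median log2 fold change of the 9 was 0.02 after the 3-100 kDa proteins and −0.06 after the total secretome. Their sum, in which abundant markers weigh most, was 2056 to 2341 TPM after the 3-100 kDa proteins, wholly below the 2429 to 2562 TPM of IC. After the total secretome it was 1992 to 2455 TPM. Over the 12 libraries r of the neuronal sum was −0.67 with Hmga1, −0.60 with Hmga2 and −0.63 with Lmna, and that of the deviations −0.76, −0.08 and −0.04. For the fibroblast sum, a few TPM at most, r was 0.79, 0.62 and 0.69 with the same genes, and 0.10, −0.26 and −0.81 among deviations. For the endothelial and mural sum it was −0.75, −0.59 and −0.74, and −0.03, 0.17 and 0.27 among deviations. The sums in these r were in deposited TPM and the members in rescaled TPM, with rescaling factors between 0.904 and 1.075. What this difference in scale adds to an r was not tested. The part of the marker shifts in the levels of Hmga1, Hmga2 and Lmna was not tested.

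The genes most similar to each member were ranked by r over the 12 libraries among 10250 genes with a mean of at least 5 TPM, with no test. For Hmga1 they were S100a10 (r 0.985), which encodes the partner of annexin A2, the chondroitin sulphotransferase gene Chst3 (0.985), Setd8 (0.978), Slc20a1 (0.978) and Ptrf (0.977). For Lmna they were Ddx50 (0.989), RGD1307704 (0.981), Sertad1 (0.981), LOC100909521 (0.981) and the translation initiation factor gene Eif4a1 (0.981). Lmna ranked 11th for Hmga1 and Hmga1 12th for Lmna. For Hmga2 the list was Actn4 (0.955), Trmt6 (0.95), Dnajb5 (0.945), Wdr1 (0.943) and Rgag4 (0.938). Within groups the r of the deviations for the genes of these 3 lists lay between 0.43 for LOC100909521 with Lmna and 0.89 for S100a10 with Hmga1.

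A different set accompanied the B-type lamins. Nearest to Lmnb1 were Mcm7 (r 0.974), a subunit of the replicative helicase, the histone H3 lysine methyltransferase gene Ezh2 (0.965), Timeless (0.954), Cdk2ap1 (0.952) and the flap endonuclease gene Fen1 (0.952). Their r was as high among deviations from the group means, between 0.95 for Fen1 and 0.98 for Mcm7. Nearest to Lmnb2 were Traf2 (0.912), Hmgb2 (0.893), Marc2 (0.890), Tcf3 (0.883) and Hmgn2 (0.878). Lmnb2 ranked 222nd for Lmnb1, and Lmnb1 ranked 102nd for Lmnb2.

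Genes of the surrounding pathways were taken from 8 lists, with 72 different genes in the files and 64 tested. Of these 64, 4 were called higher and 0 lower after EV, 7 higher and 1 lower after the total secretome, and 7 higher and 1 lower after the 3-100 kDa proteins. The shares called higher were 6.25%, 10.9% and 10.9%, against 1.56%, 5.55% and 6.64% of all genes. Their median log2 fold changes of 0.02, 0.08 and 0.05 stood beside medians of −0.01, −0.01 and −0.02 over all genes. At a false discovery rate (FDR) under 0.05 by Benjamini-Hochberg adjustment there were 0, 4 and 5 of the 64, where 0.141%, 1.97% and 3.31% of all genes passed. The shares of all genes rest on 18, 252 and 424 genes, and leaving out 1 library moved those counts to between 0 and 21 for EV, between 31 (without total secretome replicate 3) and 809 (without IC replicate 2) for the total secretome, and between 88 (without replicate 2 of the treated group) and 483 (without IC replicate 2) for the 3-100 kDa proteins. Each omission moved its count by more than 1.5-fold, apart from that of IC replicate 2 for EV and for the 3-100 kDa proteins. The called genes came from 4 of the 8 lists.

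Of the other high mobility group genes, 9 were tested, among them Hmgb1 to Hmgb3 and Hmgn1 to Hmgn3. The nucleosome-binding gene Hmgn5 was the only one called, and it was called lower. Its values were 3.87, 4.40 and 7.99 TPM in the IC libraries, and 0, 5.62 and 3.17 TPM in those of EV. After the 3-100 kDa proteins it was listed at 0, 0 and 1.48 TPM, and after the total secretome at 0 in all 3 libraries, so no fold change is given for that comparison. In both comparisons it passed the filter only through the IC libraries, in which it is high, and with a listed 0 not read as absence, both calls rest on values that may be failed estimates. The adjusted p was 0.0529 for the 3-100 kDa proteins (0.0197 to 0.219 over 12 alternatives) and 0.00894 for the total secretome (0.00358 to 0.0684 over 9 alternatives). Of the 11 heterochromatin and architectural genes tested, which include Cbx1 and Ctcf, none was called in limma, and 0 had an unadjusted p under 0.05 in any comparison with IC. The gene of lowest p after EV was Ctcf, with a log2 fold change of 0.10.

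On the axis of Lin28, let-7 and the Igf2bp RNA-binding proteins, 5 genes were tested and 2 were called higher in each comparison with IC. Igf2bp2, an RNA-binding protein gene that HMGA2 is known to regulate, had 3.03, 2.28 and 2.50 TPM in IC and 5.42, 7.51 and 5.39 TPM after EV. It had 8.71, 9.22 and 8.03 TPM after the total secretome and 8.28, 11.1 and 7.72 TPM after the 3-100 kDa proteins. No treated library overlapped IC. The log2 fold changes were 0.96 (SE 0.20), 1.44 (SE 0.17) and 1.49 (SE 0.19), with limma adjusted p of 0.324 (0.0221 to 1.0 over 12 alternatives), 0.00931 (0.000568 to 0.0834) and 0.00859 (0.000239 to 0.0611). The transcription factor gene Myc was at 19.5 ± 2.93 TPM in IC, 33.4 ± 2.67 TPM after the total secretome and 44.0 ± 7.61 TPM after the 3-100 kDa proteins (SD, n = 3 each). Its log2 fold changes were 0.60 (SE 0.15), 0.77 (SE 0.15) and 1.16 (SE 0.19), with adjusted p of 0.701 (0.346 to 1.0), 0.0512 (0.0254 to 0.276) and 0.0210 (0.00174 to 0.128). After EV, Myc fell short of 1.5-fold when IC replicate 2 or 3 or EV replicate 2 or 3 was left out, at a log2 fold change of 0.55 to 0.57.

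The lamin partners of the inner nuclear membrane were tested with 13 genes. Tmem43, which encodes the membrane protein LUMA that binds emerin and lamins, had levels of 17.1, 14.7 and 16.0 TPM in IC, and of 21.8, 25.3 and 20.7 TPM after EV. After the total secretome it had 30.1, 34.2 and 23.9 TPM and after the 3-100 kDa proteins 34.0, 43.1 and 32.6 TPM. Its means followed the order of conditions seen for Lmna, but single libraries of EV and the total secretome, and of the total secretome and the 3-100 kDa proteins, overlapped. The log2 fold change was 0.47 (SE 0.15) after EV, under 1.5-fold and so not called, 0.85 (SE 0.15) after the total secretome and 1.17 (SE 0.15) after the 3-100 kDa proteins. For the total secretome the adjusted p was 0.0377 (0.00453 to 0.212 over 12 alternatives) and 0.0619 with the replicate number as a block, and for the 3-100 kDa proteins 0.00761 (0.000367 to 0.0622). Emd, the gene of emerin, was called higher after the 3-100 kDa proteins, at 50.0 ± 1.35 against 33.1 ± 4.99 TPM in IC (SD, n = 3 each), a log2 fold change of 0.62 (SE 0.15) with an adjusted p of 0.0730 (0.0237 to 0.325). After the total secretome its log2 fold change was 0.39 (SE 0.15), past the p threshold in limma but under 1.5-fold, and the difference between these treatments was not tested. The call was lost without IC replicate 1 (0.53) and without replicate 3 of the 3-100 kDa proteins (0.58).

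None of the 4 genes tested of the LINC complex, which couples the lamina to the cytoskeleton, of the 5 of prelamin processing or of the 9 of the nuclear pores was called in a comparison with IC. After EV the lowest p in these lists was that of Sun2 (log2 fold change −0.26), Fnta (−0.16) and Ndc1 (0.25). At an unadjusted limma p under 0.05, whatever the fold, there was 1 such gene of the LINC complex, Sun1 after the total secretome (log2 fold change 0.36, SE 0.15), 1 of the pores, Npap60 after the 3-100 kDa proteins (0.28, SE 0.11), and 0 of prelamin processing.

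Of the other intermediate filament genes, 8 were tested, and those called were higher. Synm, the gene of synemin, lay the other way, at log2 fold changes of −0.50 (SE 0.21) after the total secretome, with an unadjusted limma p under 0.05 but under 1.5-fold, and −0.53 (SE 0.23) after the 3-100 kDa proteins. Vim, the gene of vimentin, was at 107, 196 and 101 TPM in IC and 196, 328 and 221 TPM after EV. It was at 331, 515 and 412 TPM after the total secretome and 437, 585 and 622 TPM after the 3-100 kDa proteins. In deposited TPM, EV overlapped IC by 1 library (195.8 against 196.3 TPM), and after rescaling it did not. The other treatments lay above IC on both scales. The log2 fold changes were 0.90 (SE 0.29), 1.70 (SE 0.29) and 2.10 (SE 0.29), with adjusted p of 1.0 (0.237 to 1.0 over 12 alternatives), 0.0333 (0.00599 to 0.177) and 0.0108 (0.00121 to 0.0639). The EV call was lost without IC replicate 1 (log2 fold change 0.73), IC replicate 3 (0.78) or EV replicate 2 (0.72).

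Gfap was at 85.0, 361 and 128 TPM in IC and 491, 617 and 362 TPM after EV, and at 271, 636 and 408 TPM after the total secretome, which overlapped IC. After the 3-100 kDa proteins it had 242, 447 and 310 TPM, which also overlapped IC. Its log2 fold change was 1.58 (SE 0.51) after EV, 1.40 (SE 0.55) after the total secretome and 1.05 (SE 0.51) after the 3-100 kDa proteins, where it was not called, but was called with the replicate number as a block. The adjusted p was 1.0 for EV (0.0745 to 1.0 over 12 alternatives). For the total secretome it was 0.269 (0.0252 to 0.661), the lowest being the value with the replicate number as a block. The call was lost without EV replicate 2 for EV (1.44), and for the total secretome without IC replicate 1 (0.91), IC replicate 3 (1.30), total secretome replicate 2 (1.09) or replicate 3 (1.35).

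Of the neurofilament genes, Nefm and Nefh were called higher after the total secretome and the 3-100 kDa proteins, whereas Nefl, with log2 fold changes of 0.37 (SE 0.13) and 0.36 (SE 0.16), was not. Nefm had log2 fold changes of 0.72 (SE 0.15) and 0.79 (SE 0.14), with adjusted p of 0.0628 (0.0345 to 0.258 over 12 alternatives) and 0.0288 (0.0158 to 0.160). Nefh had 0.63 (SE 0.22) and 0.62 (SE 0.22), with adjusted p of 0.217 (0.0906 to 0.496) and 0.214 (0.115 to 0.527). For the total secretome the Nefh call was lost without IC replicate 1 (0.46) or without total secretome replicate 1 (0.54) or 3 (0.63). For the 3-100 kDa proteins it was lost without IC replicate 1 (0.45) or without replicate 1 (0.55) or 3 (0.61) of the treated group, and with the replicate number as a block (0.62, unadjusted p = 0.0542 in limma).

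**Figure D4:**
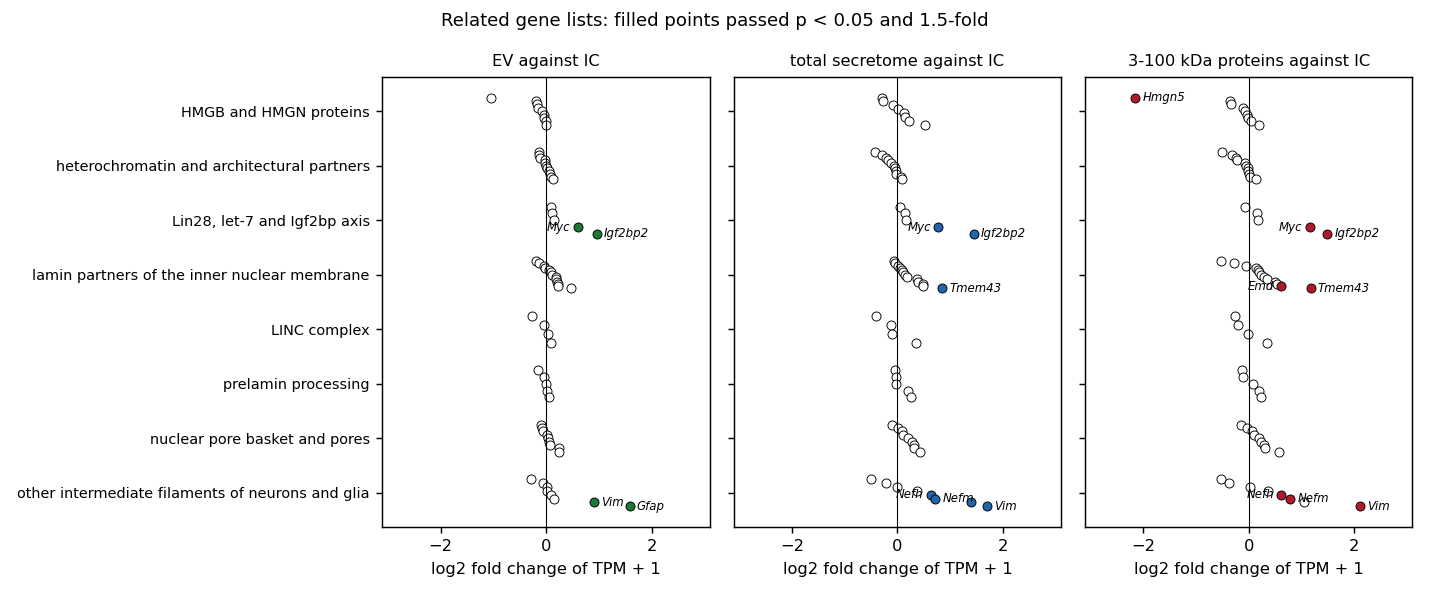
Log2 fold change of TPM + 1 against IC (horizontal axis) of every tested gene in the 8 related lists, 1 point per gene, offset vertically for legibility, with filled points for genes past an unadjusted p of 0.05 and 1.5-fold. Hmgn5 in the total secretome panel is left out because all 3 treated libraries are listed at 0, and the unlabelled filled point beside Vim in that panel is Gfap. Most points lie near 0, and the filled ones are Igf2bp2, Myc, Tmem43, Emd and the intermediate filament genes on the right and Hmgn5 on the left.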

How the data were processed

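According to the study's methods, quality control was done with FastQC and trimming with Trimmomatic and Cutadapt. Salmon then gave transcript abundances against Ensembl rat transcripts, with the genome serving as decoy (build Rnor_6.0 per the labels), and tximport collapsed these to genes. The deposited values carry no named unit. They sum to 1000000 in each of the 12 libraries and are not whole numbers, and were taken as TPM as the authors made them. Labels and methods differ on the sequencing kit and instrument and on the age of the pups, so neither is given as fact.

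Rows sharing a gene name were added up. Libraries of a comparison were brought to a common scale with median-of-ratios factors, a gene was kept if 3 or more of the 6 libraries had 1 TPM or more, and log2(TPM + 1) was fitted with limma 3.58.1 in R 4.3.3 (lmFit, eBayes with a mean-variance trend), with Benjamini-Hochberg adjustment over all genes tested. No count model was used, since TPM are not counts and keep no depth. The scripts were tested on simulated data.

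Members and lists were chosen with earlier results of these data known. Named list genes are those called in a comparison with IC, at most 4 per list and comparison in order of p, or else the gene of lowest p after EV. Likeness names the 5 genes of highest r. The promoter window was extended to 10 bases past the start after a match crossing the start had been seen.

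Same-numbered libraries were compared by the correlation of their deviations from the group means. Against IC, EV gave −0.08, −0.18 and 0.54 and the 3-100 kDa fraction −0.01, −0.25 and 0.25, and neither was read as paired. The total secretome gave 0.25, 0.16 and 0.16 and was read as paired, from the data and not from the design. The study removed a day covariate when plotting IC and EV, and which day each library belongs to is not given in the sources used here, so day was not fitted. Alternatives were another pseudocount, no filter, no rescaling, 1 fit of all 12 libraries, the replicate block, no variance trend (for called genes and list genes, not members), and each library left out.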

Additional observations from a re-analysis of the deposited data

How the results depend on the processing

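No fold change of a member in a comparison with IC turned its direction where it exceeded its standard error. Leaving out 1 library at a time, the log2 fold change of Hmga1 ran from 0.72 to 0.96 for EV, 1.73 to 1.95 for the total secretome and 2.51 to 2.73 for the 3-100 kDa proteins, and that of Lmna from 0.72 to 1.06, 1.93 to 2.15 and 2.31 to 2.53. With 0.1 TPM added in place of 1, Hmga2 moved to 3.99 for the 3-100 kDa proteins against IC and to −2.91 for EV against the 3-100 kDa proteins. Hmga2 was below the filter in the other comparisons with EV and in that of the total secretome with IC, and no alternative is given there. The number of genes called for EV against IC, 274, ran from 221 to 443 when 1 library was left out, with 443 without EV replicate 1, where 0 genes passed the FDR in limma. Those called lower for EV, 75, ran from 55 without IC replicate 1 to 185 without EV replicate 1. For the total secretome the 325 called lower ran from 265 to 590, the latter without IC replicate 2. For the 3-100 kDa proteins the 434 called lower ran from 376 to 583. With the replicate number as a block, the number called in either direction was 315 for EV (0 past the FDR in limma, against 18 without the block), 1312 for the 3-100 kDa proteins (192 past the FDR, against 424) and 1144 for the total secretome, whose numbers were read as paired. In this balanced design the block leaves the fold changes as they are, and for the total secretome the SE was 0.12 for Hmga1 and 0.14 for Lmna with it. For Tmem43 after the total secretome the adjusted p under the block was 0.0619, and for Gfap 0.0252. TPM keeps no depth, so what depth limits could not be stated.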
